A study of Microtus ochrogaster with 23 samples.

Results

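Adult male prairie voles that attacked a pup were compared with males that cared for one, in DNA methylation of the dentate gyrus (DG) of the hippocampus. The comparison took 17 of the 23 libraries of the series, each from 1 animal. These were 6 wild-type virgin males labelled “Attacker” and, as one pup-caring group of 11, the 6 wild-type virgin males labelled “Parental” and the 5 wild-type pair-bonded males labelled “Father”, which lived with a mate and young offspring. Virgin males were classed by their own response to an unfamiliar pup, so these groups were not assigned at random, and “Attacker” males were parted from the pup once they attacked. The 6 “Mother” libraries entered no fit. The 23 libraries together read 4051749 cytosines, and 1029005 of these were tested, namely those outside chromosome X with at least 10 reads in at least 5 “Attacker” and at least 8 caring males.

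Methyl groups on the cytosine of CpG dinucleotides are placed by DNA methyltransferases and can be removed by way of TET enzymes, and dense methylation at regulatory sequence usually goes with a silent gene. The DG is one of the few parts of the adult rodent brain in which neurons are still born. Reduced representation bisulfite sequencing (RRBS) reads fragments cut by MspI, which favours CpG-rich sequence, where most cytosines are unmethylated. The level of a cytosine is the percentage of its reads that were counted as methylated. The files hold these counts and no genotypes, so sequence differences between animals at a cytosine were not tested. A tissue punch mixes cell types, so a shift in their proportions and a shift within one type cannot be told apart. Expression was not measured in these files, so the tissue could not be checked against marker transcripts.

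The mean methylation level did not separate the groups. Over the 487440 cytosines with at least 10 reads in each of the 17 males, “Attacker” males had 5.40% at the lowest, 5.83% at the median and 6.92% at the highest, and caring males 5.52%, 5.72% and 6.16%. The means were 5.96% ± 0.577 (SD, n = 6) and 5.76% ± 0.223 (SD, n = 11), with “Parental” at 5.75% and “Father” at 5.77%. The difference of 0.201 percentage points was within the spread between animals (exact permutation test over all 12376 splits, two-sided, p = 0.340). “Attacker” animal 6 was the highest of the 17 males, and without it the difference was 0.00981 points. Cytosines within genes had a mean of 4.44% ± 0.492 in “Attacker” (SD, n = 6) and 4.25% ± 0.189 in caring males (SD, n = 11), and those outside genes 8.03% ± 0.728 and 7.78% ± 0.277. Both differences were within the spread between animals (exact permutation test, two-sided, p = 0.297 and p = 0.365).

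Depth moved with the mean level. The median number of reads at a covered cytosine was 19 to 38 in “Attacker” and 21 to 43 in caring males, from 64896224 to 129376223 cytosine calls per library. Shallower libraries had higher mean levels across the 17 males (Pearson's r = -0.691, permutation p = 2e-05, the smallest that the resamples can give, adjusted 2.67e-05; Spearman's rho = -0.822, permutation p = 6e-05, adjusted 6e-05). The adjustment covered 2 relations with both coefficients. Without the 2 libraries farthest from the median depth, r was -0.792. Within “Attacker” r was -0.792 and within caring males -0.660. “Attacker” animal 6 was the shallowest of the 17, and the part of depth in the differences below was not tested.

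**Figure D1:**
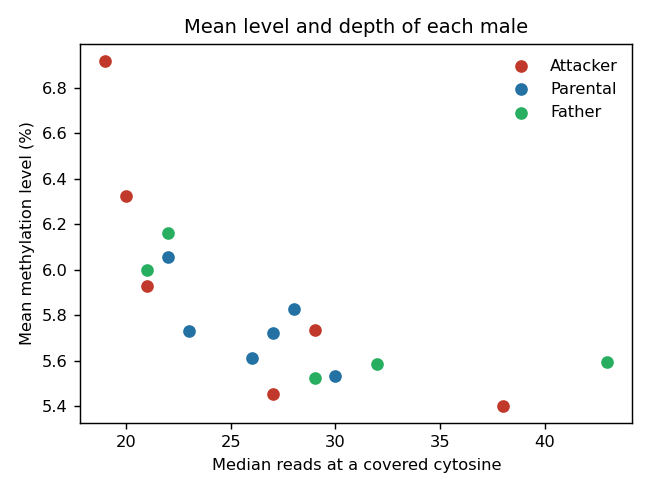
Mean methylation level (vertical axis, %) over the 487440 cytosines covered in every male, against the median number of reads at a covered cytosine (horizontal axis), with 1 point per male and colours for the 3 groups. The “Attacker” animal at 19 reads has the highest level, 6.92%, and the libraries at 23 reads or more lie below 6%.

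At single cytosines the groups differed at 44 of 1029005 positions, or 0.00428% of those tested. These differentially methylated cytosines (DMCs) had a Benjamini-Hochberg adjusted p-value under 0.05 over all tested cytosines in the beta-binomial Wald test of DSS, and a difference of group means over 15 percentage points. This test takes its p-values from a normal distribution whatever the number of animals, so very small ones should be read with care. By limma, 5 of the 44 also had an adjusted p-value under 0.05, and none did with the replicate number as a block. Of the 44 DMCs, 28 were hypermethylated in “Attacker” (0.00272% of those tested) and 16 were hypomethylated (0.00155%). The size of the difference ran from 23.1 to 82.6 points with a median of 56.5, against a median size of 0.633 points over all tested cytosines. The hypermethylated share was 63.6% (exact Clopper-Pearson 95% interval 47.8% to 77.6%, with DMCs taken as independent). It depended on 1 library, since the fit without “Attacker” animal 6 called 92 DMCs, of which 42.4% were hypermethylated.

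“Parental” and “Father” lay on the same side of “Attacker” at 44 of the 44 DMCs, each by more than 15 points. Both contrasts share the “Attacker” males, and selection by the pooled test brings nearly all of this agreement. Where the “Attacker” mean differed from both caring means, the direction was the same at 74.2% of 437237 tested cytosines, and at 8920 of 8931 (99.9%) with an unadjusted p-value under 0.05. The caring groups differed from each other by a median size of 5.804 points at the DMCs, by over 15 points at 12 of them and by 39.3 points at most. None of the 44 had an adjusted p-value under 0.05 for “Parental” against “Father” (limma), and 3 had an unadjusted p-value under 0.05. Taken on their own by the same Wald test, “Attacker” vs “Parental” gave 55 hypermethylated and 46 hypomethylated DMCs of 1022790 cytosines. “Attacker” vs “Father” gave 62 and 56 of 980524.

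At 27 of the 44 DMCs no “Attacker” male overlapped with any caring male, 17 with higher and 10 with lower levels. Such separation was found at 64 tested cytosines in all, or 0.00622%, of which 37 were not DMCs. Calling on these same values favours separated sites, so the count among the DMCs is a description and was not tested. The SD was smaller in “Attacker” than in caring males at 32 of 44 (72.7%), with medians of 10.2 and 21.02 points. The Wald test uses each group's own spread, so calling favours sites with a small spread in a group, and this share was not tested. Over all tested cytosines the share was 35.5%. Equal SDs, as where every male has 0%, count there as not smaller, so it is no baseline. All covered “Attacker” males were above 80% at 11 DMCs (25% of them, against 1.69% of all tested) and below 20% at 6 (13.6%, against 76.7%). Levels of exactly 0% or 100% made up 42.0% of the animals' values at DMCs and 84.8% at all tested cytosines. A DMC rested on 67 to 650 “Attacker” reads in all (median 184.5) and on 127 to 1827 caring reads (median 369), and 8 of the 44 were covered in all 17 males.

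**Figure D2:**
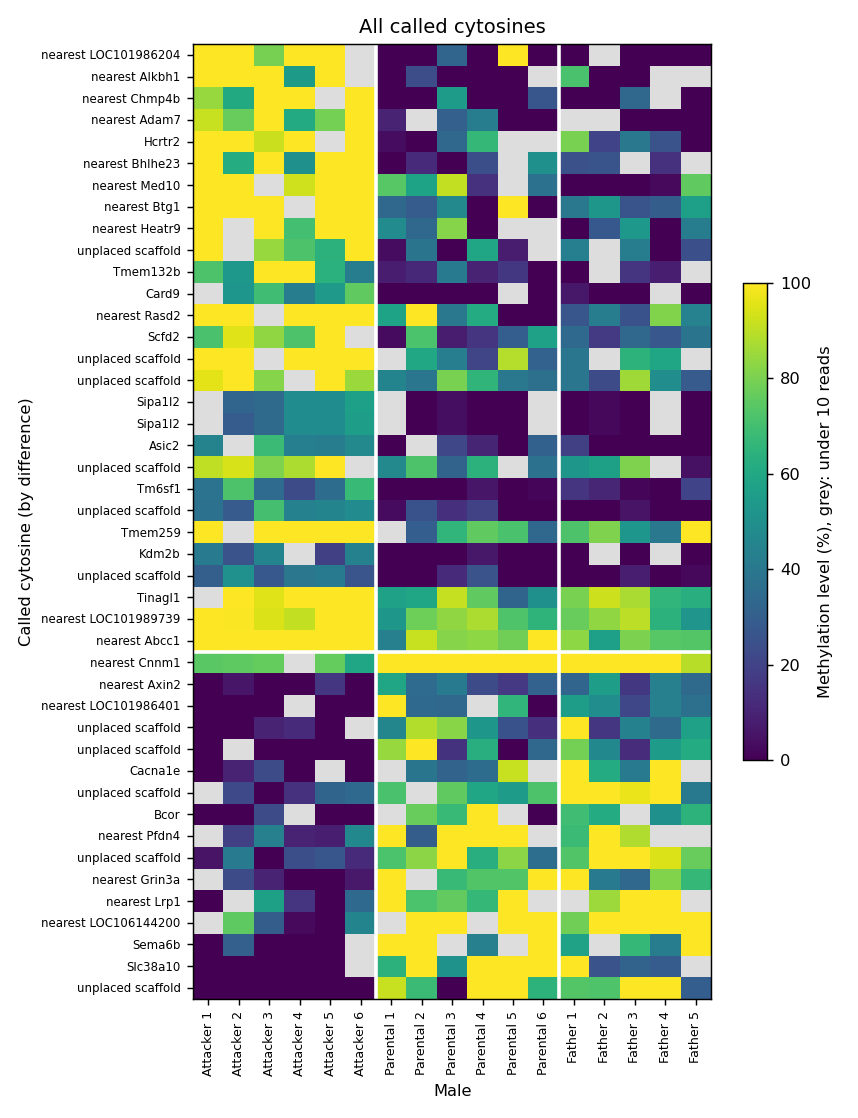
Methylation level (colour, 0 to 100%) of the 44 DMCs (rows, ordered by the difference and labelled with the gene that holds them or the nearest gene) in each of the 17 males (columns). The upper 28 rows are higher in “Attacker” and the lower 16 rows are lower, and grey cells had under 10 reads.

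Of the 44 DMCs, 33 lay on placed chromosomes or linkage groups of the MicOch1.0 assembly and 11 on unplaced scaffolds, to which no gene was assigned. Within genes lay 15 of the 33 (45.5%), in 14 named genes, against 65.8% of the tested cytosines on placed chromosomes. The caring mean was under 20% at 31.8% of the 44 DMCs and at 88.0% of all tested cytosines. The tested share within genes is therefore no baseline, and a difference from it was not tested. The gene table used gives starts and ends only, so exonic, intronic and promoter positions could not be distinguished. The rule for naming took the 6 smallest adjusted p-values in each direction with at most 1 cytosine per gene, and Tm6sf1, Tmem132b, Tinagl1 and Asic2 were added after their values were seen, to complete the 14.

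The smallest adjusted p-value belonged to a cytosine of Card9, which encodes an adaptor of innate immune signalling known from antifungal defence. At chr4:50955866, within the gene (50951629 to 50961282), the 5 covered “Attacker” males had 42.4% to 75.8% (median 54.2%). The 5 covered “Parental” males had 0% each, and the “Father” males had 6.25%, 0%, 0% and 0%. All “Attacker” males were above all caring males. The means were 58.8% ± 13.5 (SD, n = 5) and 0.694% ± 2.08 (SD, n = 9), with an adjusted p from the Wald test across all cytosines of 3.69e-08. At the 4 other tested cytosines within 89 bp “Attacker” was higher by 21.9 to 37.5 points, with an adjusted p-value of 0.982 each. Caring males had means of 35.6% to 39.98% at those positions and nearly 0% at the DMC.

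A pair of DMCs lay 38 bp apart in Sipa1l2, which encodes a GTPase-activating protein for Rap. At chr4:33251704 “Attacker” males ranged from 32.4% to 56.5% (median 48.7%, 5 covered), “Parental” males from 0% to 3.64% (4 covered), and the “Father” males had 0%, 2.22%, 0% and 0%. The difference was 43.4 points (adjusted p = 2.84e-06), and at chr4:33251666 it was 42.6 points (adjusted p = 6.39e-06). The groups overlapped at neither position, and no further tested cytosine lay within 100 bp. The values of the caring males were equal at both positions, so the pair is not 2 independent results.

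Kdm2b encodes a histone demethylase that binds unmethylated CpG islands. At chr2:14650816 its “Attacker” males had 19.05% to 45% (median 41.0%, 5 covered), 5 of 6 “Parental” males had 0% and 1 had 6.25%, and the 3 covered “Father” males had 0%. The groups did not overlap, and the difference was 34.3 points (adjusted p = 0.0199). A cytosine 36 bp away differed by 37.8 points but was not called (adjusted p = 0.133), and one 78 bp away on the other side differed by -5.29 points.

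The DMCs of Card9, Sipa1l2 and Kdm2b and one that lay 15901 bp from Cnnm1 also passed limma on the arcsine scale, which called 9 cytosines in all. They were the only 5 DMCs that did so. Near Cnnm1, at chr8:71003768, the direction was opposite. There 10 of 11 caring males had 100% and 1 had 89.4%, whereas “Attacker” males ranged from 58.7% to 76.5%. No male overlapped with the other group, and the difference was -26.9 points (adjusted p = 0.0348 by the Wald test and 0.0134 by limma).

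At 7 further DMCs within genes “Attacker” was higher and caring males ranged widely or low. Hcrtr2 encodes orexin receptor 2, known for its part in arousal. At chr5:63390720 it had 100% in 4 and 92.1% in 1 of the 5 covered “Attacker” males, 0% to 66.7% in “Parental” (median 18.6%, 4 covered), and 80%, 20%, 40%, 25.6% and 0% in the “Father” males. The groups did not overlap, and the difference was 68.5 points (adjusted p = 5.87e-06). In Scfd2, at LG1:30132845, “Attacker” males had 71.2% to 100%, “Parental” males 2.78% to 71.8%, and the “Father” males 34.3%, 17.1%, 33.3%, 26.97% and 38.5%. A single “Parental” male lay inside the “Attacker” range, and the difference was 53.9 points (adjusted p = 0.0152). In Tmem259, at LG1:3822783, all 5 covered “Attacker” males had 100%, as did 1 “Father” male, and the difference was 37.9 points (adjusted p = 0.00753).

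Tmem132b, at chr2:11852799, had 42.1% to 100% in the 6 “Attacker” males and at most 41.7% in caring males, a difference of 59.7 points (adjusted p = 0.0316). Tm6sf1, at chr22:12167454, was covered in all 17 males and had 22.9% to 72% in “Attacker” and at most 20% in caring males, a difference of 40.1 points (adjusted p = 0.0227). Both separated the groups by a narrow margin. Asic2, which encodes a subunit of acid-sensing ion channels, had 42.2% to 68% in “Attacker” and at most 30.9% in caring males at chr7:17403865 (40.9 points, adjusted p = 0.0413). Tinagl1, which encodes a secreted matrix protein, had 95% to 100% in “Attacker” and 32.2% to 92.2% in caring males at chr10:54463759 (30.6 points, adjusted p = 0.0413). These sites, too, had no overlap between the groups.

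In 4 genes the DMC was lower in “Attacker”. Slc38a10, a gene of the amino acid transporter family, had 0% in all 5 covered “Attacker” males at chr7:83268260. These were 0 of 106 reads, which allows a level of up to 2.83%, for counting error only. “Parental” males ranged from 51.5% to 100% (median 100%), the “Father” males had 100%, 25.5%, 32% and 28.9%, and the difference was -70.2 points (adjusted p = 0.000347). No other DMC set the caring groups as far apart, 39.3 points. Sema6b, which encodes a transmembrane semaphorin of axon guidance, had 0% in 4 and 30.6% in 1 of 5 “Attacker” males at chr22:34135901. Caring males there had 42.2% or more, and the difference was -70.1 points (adjusted p = 0.0109).

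Cacna1e encodes the pore-forming subunit of R-type calcium channels. At chr6:3669458 its “Attacker” males had at most 23.1% and its caring males at least 31.8%, a difference of -56.1 points (adjusted p = 0.0413). Bcor encodes a corepressor found with the Kdm2b protein in a variant Polycomb complex. At chr10:38633902 it had 0% in 4 of 5 “Attacker” males and 23.1% in the other. Caring males had 50% or more except 1 “Parental” male at 0%, so the groups overlapped, and the difference was -56.6 points (adjusted p = 0.0416).

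The calls differed in how far they rested on single animals. Of the 44 DMCs, 20 passed in each of the 17 fits that left out 1 male, among them those of Card9, Sipa1l2, Hcrtr2, Slc38a10 and Sema6b. The other 24 missed the threshold in 1 fit or more: Tmem259 in 1, Kdm2b and Tmem132b in 3, Scfd2 and Tm6sf1 in 4, Tinagl1 in 7, Cacna1e in 8, Bcor in 11 and Asic2 in 12. Leaving out “Attacker” animal 1 or “Father” animal 4 lost 13 each.

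**Figure D3:**
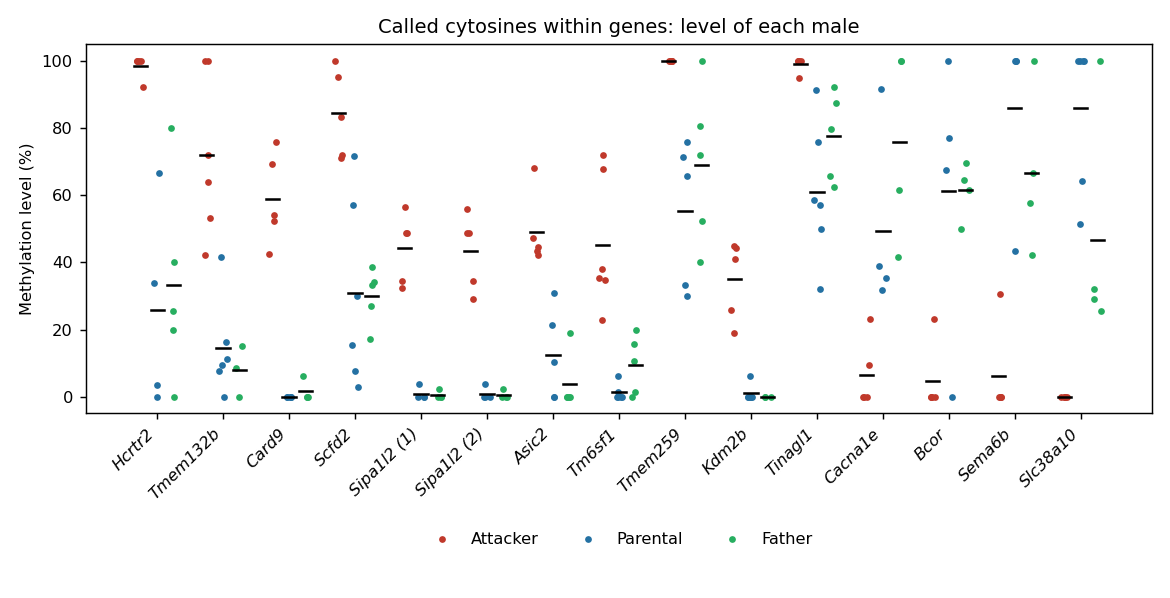
Methylation level (vertical axis, %) of each male at the 15 DMCs within genes (horizontal axis, ordered by the difference), with 1 point per male and a bar at each group's mean. “Attacker” points lie above all others at 9 of the 11 sites on the left, Scfd2 and Tmem259 being the exceptions, and below all others at 3 of the 4 sites on the right, where Bcor has 1 “Parental” male at 0%.

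Outside genes, 18 DMCs on placed chromosomes lay 157 to 79403 bp from the nearest gene (median 14560 bp), 8 of them within 10 kb. The sites named here were chosen after their values were seen. A DMC 157 bp from Heatr9, at chr7:15566072, had 70.3% to 100% in “Attacker” and 0% to 81.8% in caring males (62.2 points, adjusted p = 0.00998). One lay 900 bp from Bhlhe23, a gene of a neural transcription factor, at LG8:1069034, with 50% to 100% in “Attacker” and 0% to 50% in caring males (66.4 points, adjusted p = 0.0112). The groups met or overlapped at both. Near Grin3a, which encodes a subunit of NMDA receptors, a DMC 18217 bp away at LG5:44434834 had 0% to 23.3% in “Attacker” and 33.3% to 100% in caring males, with no overlap (-65.6 points, adjusted p = 3.62e-06).

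Axin2 encodes a feedback inhibitor of Wnt signalling. A DMC 7641 bp from it, at chr7:71996444, was covered in all 17 males. It had 0% in 4 “Attacker” males and 6.06% and 16% in the other two, 16.7% to 58.8% in “Parental”, and 32.7%, 55.6%, 16.3%, 43.6% and 34.5% in the “Father” males. The groups did not overlap, the caring means were 34.4% and 36.5%, and the difference was -31.7 points (adjusted p = 0.0135). A cytosine 3 bp away differed the other way, by 21.2 points, but was not called (adjusted p = 0.982).

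On the unplaced scaffolds, a cytosine at JH996431.1:22132426 had 0% in all 6 “Attacker” males. These were 0 of 247 reads, which allows a level of up to 1.21%. Caring males had 30% to 100% except 1 “Parental” male at 0%, with a “Parental” mean of 70.7% and a “Father” mean of 75.2% (-72.75 points, adjusted p = 6.39e-06). The only other tested cytosine within 100 bp lay 32 bp away. Its means were 100% in “Attacker” and 95.1% in caring males.

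The “Mother” animals had taken no part in the calls. Their mean was nearer to the caring than to the “Attacker” mean at 31 of the 44 DMCs (70.5%), as a description. The share over all tested cytosines, 29.8%, is no baseline, since equal distances count as not nearer. Of the males' levels there, 84.8% were exactly 0% or 100%. The DMCs were selected by the “Attacker” and caring values, so a resemblance of “Mother” to either group was not tested. The “Mother” mean was 0% in Kdm2b, as in “Father”, and 11.4% in Cacna1e, nearer to “Attacker”. In Tmem259 all 6 “Mother” animals had 100%, like the covered “Attacker” males.

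Neighbours were counted as other tested cytosines within 100 bp, without the other strand of the same CpG. Such neighbours were found at 37 of the 44, and their median difference in size had a median of 11.4 points over the 37. At 10 of the 37 no neighbour differed by over 15 points, and at 27 at least 1 did. Of the 18 regions (defined below) that held a DMC, which is part of its region, 16 differed in the direction of the DMC, with a median size of 7.07 points, and 1 was called. In Sema6b, where the DMC was lower in “Attacker”, the 4 neighbours within 70 bp were higher by 7.53 to 20.4 points (adjusted p = 0.982 each). In Slc38a10 the 5 neighbours within 91 bp differed by -3.98 to 16.6 points, while its region of 13 cytosines differed by -13.1 points (limma, adjusted p = 0.932). In Tinagl1 the 3 neighbours within 46 bp were higher in “Attacker” by 14.3 to 28.1 points, none of them called. The other strand of the same CpG was tested at 14 DMCs, where the direction was the same at 7 and the difference over 15 points in that direction at 3.

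**Figure D4:**
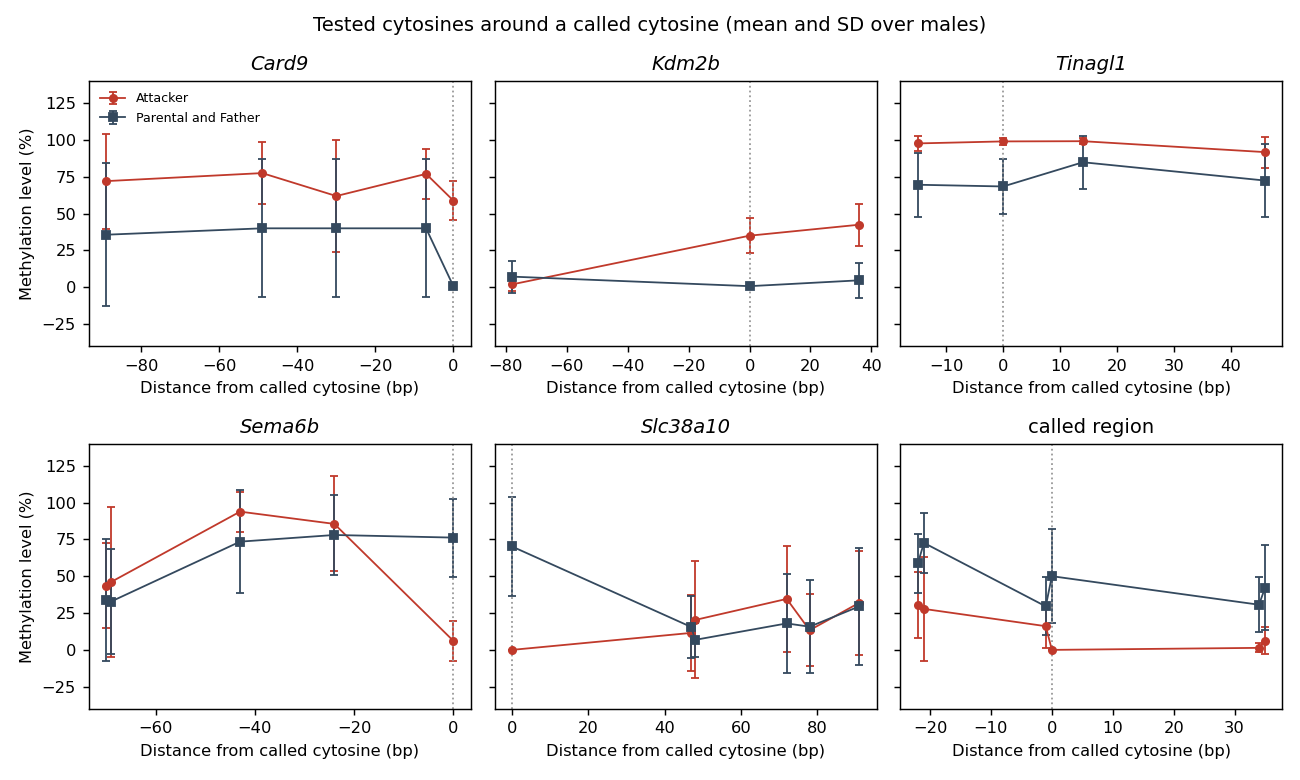
Methylation level (vertical axis, %, mean and SD over the covered males) of “Attacker” and of caring males at the tested cytosines around a DMC, by distance in bp (horizontal axis, DMC at 0). In Sema6b and Slc38a10 the DMC is set apart from the neighbours shown, and in Tinagl1 “Attacker” is higher throughout. In the called region (last panel) “Attacker” is lower at 6 of 6 cytosines, which lie in pairs of adjacent positions. SD bars can pass 0% or 100%, which levels cannot.

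Regions were runs of at least 5 tested cytosines with gaps of at most 100 bp, set by coverage alone. Of 37021 regions, 1 was called (0.0027%) by limma on the arcsine of the square root of each animal's mean level, with an adjusted p-value under 0.05 and a difference over 5 points. It lay on an unplaced scaffold, JH996428.1:35030638-35030695, and held 6 cytosines. “Attacker” males had 6.67% to 22.6% (median 13%), “Parental” males 24.2% to 57.6% (median 47.7%), and the “Father” males 57.6%, 48.8%, 36.0%, 55% and 61.4%. The groups did not overlap. The means were 13.4% ± 6.36 (SD, n = 6) and 48.0% ± 12.01 (SD, n = 11), a difference of -34.6 points (limma, adjusted p = 0.0355). Its 6 cytosines differed by -13.5 to -50.1 points, and 1 of them was a DMC. They lay in pairs of adjacent positions, so they are not 6 separate sites. “Attacker” animals 2 and 4 and “Father” animal 4 were covered at only 1 position of each pair, so the means of the males do not cover the same cytosines. The region missed the threshold in 12 of the 17 fits that left out 1 male, and with a replicate block (adjusted p = 0.191).

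A region at JH996454.1:4857443-4857617, with 13 cytosines, also had an adjusted p-value under 0.05 (limma, 0.0288), but a difference of -1.95 points. All 6 “Attacker” males had 0% there, and caring males had 0.537% to 3.47%. Its adjusted p-value (limma) was 0.133 with a replicate block, and it was above 0.05 in 8 of the 17 fits that left out 1 male (up to 0.129). Among regions that were not called, 26 cytosines in Kcnk1, a gene of a leak potassium channel, had 0% in all 6 “Attacker” males and 0.101% to 3.20% in caring males at chr4:33704780-33704931 (limma, adjusted p = 0.225). In the other direction, none of the 3 regions with the smallest p-values was called. They lay at JH996490.1:889185-889262 (4.27% against 0.185%, limma, adjusted p = 0.103), JH996446.1:4208451-4208757 (1.19% against 0.127%, adjusted p = 0.234) and JH996529.1:864776-864970 (15.6% against 4.88%, adjusted p = 0.598). Over all regions 50.04% were higher in “Attacker”, and 2004 had an unadjusted p-value under 0.05 (5.41%).

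No gene was called among 9828 with at least 5 tested cytosines (0%), and the smallest adjusted p-value was 0.970 (limma). An unadjusted p-value under 0.05 was found for 424 genes (4.31%), with 279 higher and 145 lower in “Attacker”. The median difference over genes was 0.107 points with 57.8% higher, and without “Attacker” animal 6 it was -0.0124 points with 49.1% higher. The 3 genes with the smallest p-values in each direction are given as values. Slc41a2, a magnesium transporter gene, had 1.71% ± 0.445 in “Attacker” (SD, n = 6) and 0.469% ± 0.354 in caring males (SD, n = 11). Rab4a, a GTPase gene of endosome recycling, had 3.97% ± 2.84 and 0.675% ± 0.554. Sfpq, a splicing factor gene, had 4.81% ± 1.84 and 2.12% ± 0.746. These were low levels, with differences of 1.24 to 3.30 points.

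In the lower direction, the non-coding LOC113457511 had 0.00225% ± 0.00552 in “Attacker” and 0.747% ± 0.531 in caring males, with no overlap. Alox15, a lipoxygenase gene, had 0.595% ± 0.543 and 1.96% ± 0.826. Plac8 stood apart in size: “Attacker” males ranged from 0.952% to 84.4% (median 33.7%) and caring males from 56.7% to 93.8% (median 73.9%), over 6 cytosines. “Attacker” animals 1 to 6 had 0.952%, 20.7%, 22.6%, 44.9%, 46.3% and 84.4%. These levels rose as the animals' median depth fell from 38 to 19 reads, and the part of depth was not tested. The difference was -37.4 points, and -46.9 points without “Attacker” animal 6, with an adjusted p of 0.157 by limma.

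The pathways and cell types of interest in this tissue were taken as lists of genes. Of the 427 genes on the 18 lists, 308 lay on placed chromosomes, and none of these held a DMC among 18334 tested cytosines, beside 0.00428% called over all. None of the 251 with a value was called. An unadjusted p-value under 0.05 was found for 7 genes that were higher in “Attacker” (Itgb4, Htr3a, Oprd1, Gli2, Rest, Chat and Cspg4) and 4 that were lower (Dvl2, Itga4, Drd2 and Srd5a1). These 11 of 251 were close to the share over all genes, 4.31%. Drd2, the dopamine D2 receptor gene, had 2.15% to 7.56% in “Attacker” and 5.17% to 11.98% in caring males, a difference of -2.89 points (limma, adjusted p = 0.990). Gli2, a transcription factor gene of Hedgehog signalling, had 20.4% to 27.96% and 16.005% to 24.9%, a difference of 4.16 points (adjusted p = 0.990). The groups overlapped in both.

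By list, the median difference over genes was 0.359 points for Wnt ligands (9 of 15 genes higher in “Attacker”), 0.188 for Wnt receptors (7 of 12), 0.410 for Wnt inhibitors (7 of 11) and -0.0890 for intracellular Wnt components (7 of 17). It was 0.301 points for dentate neurogenesis (33 of 44), 0.269 for glutamate receptors and scaffolds (19 of 31), 0.226 for social and hormone signalling (17 of 29), 0.117 for extracellular matrix and receptors (20 of 36) and 0.344 for cholinergic genes (5 of 8). Over all lists it was 0.288 points with 155 of 251 higher, beside 0.107 points for all genes. Imprinted genes, which carry methylation set in the parents' germ cells, had a median of 0.551 points with 13 of 15 higher. “Attacker” animal 6 had the highest mean over them, 20.1%, and without it the median was 0.279 points with 11 of 15 higher. The DNA methylation machinery had 0.0824 points (6 of 12). Without “Attacker” animal 6 the median turned to -0.137 points for Wnt receptors (5 of 12 higher), -0.105 for glutamate receptors (15 of 31), -0.174 for social and hormone signalling (13 of 29), -0.372 for extracellular matrix (14 of 36) and -0.143 for the methylation machinery (5 of 12). It was 0.101 points for Wnt ligands, 0.213 for Wnt inhibitors and -0.261 for intracellular Wnt components.

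Cell type markers were measured at few genes. The median difference was 0.317 points for granule neuron markers (5 of 7 higher), 0.351 for astrocyte (3 of 4), 0.649 for oligodendrocyte (5 of 8), -1.03 for vascular (1 of 4) and 0.447 for choroid plexus markers (2 of 2), and the single microglia marker with a value had -0.0352. Without “Attacker” animal 6 the median was -0.0372 for granule neuron (3 of 7), -0.700 for astrocyte (1 of 4), -0.405 for oligodendrocyte (3 of 8), -2.32 for vascular and 0.0111 for choroid plexus markers, and -0.508 for the microglia marker. The ranges of their mean level overlapped, with 8.23% to 13.7% in “Attacker” and 7.10% to 10.96% in caring males for granule neuron markers, and 3.99% to 22.98% and 3.99% to 12.1% for astrocyte markers. Their part in the differences was not tested.

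**Figure D5:**
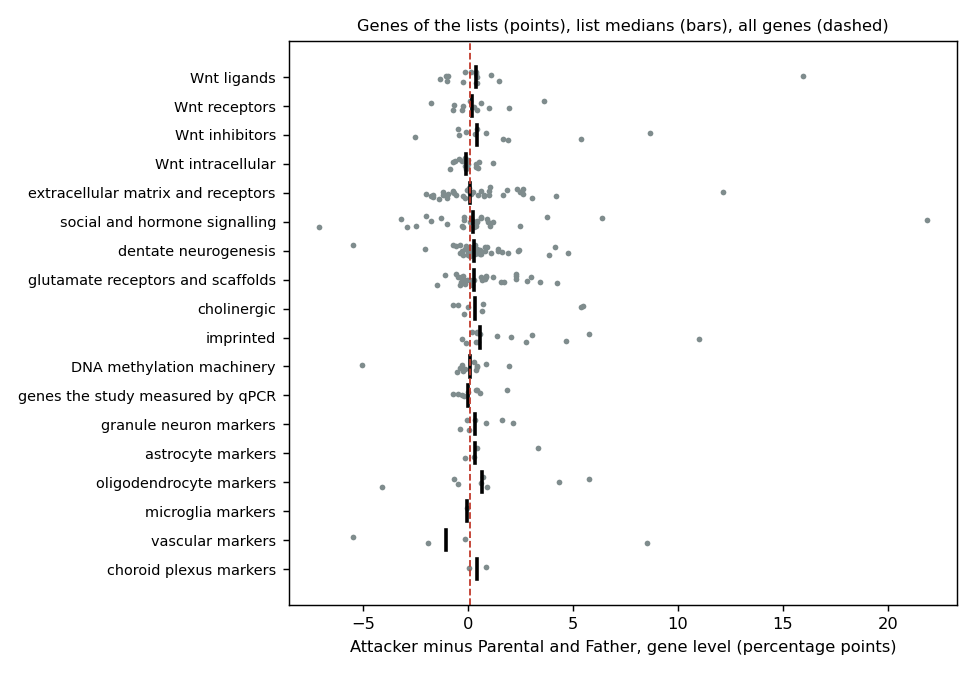
Difference in gene level between “Attacker” and caring males (horizontal axis, percentage points) for the genes of each list (rows), with 1 point per gene, a bar at the list's median and a dashed line at the median of all genes, 0.107. List medians lie between -1.03 and 0.649 points.

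A set of genes had also been measured by qPCR. Of these, 9 had a methylation value, and none had an unadjusted p-value under 0.05. Fzd10, a Wnt receptor gene, had 1.23% to 3.00% in “Attacker” (median 2.21%) and 1.59% to 4.04% in caring males (median 3.29%). The groups overlapped, and the difference was -0.694 points (limma, adjusted p = 0.990). Igf2, a growth factor gene, differed by 0.551 points, Wnt6, a Wnt ligand gene, by 0.391, and Col12a1, a collagen gene, by 1.84. Without “Attacker” animal 6 Igf2 differed by 0.279 points and Col12a1 by 0.681. Chrna3, a nicotinic receptor subunit gene, differed by -0.492 points. Crhr2, Kiss1r and Prlhr, which encode receptors for neuropeptides, differed by -0.302, -0.194 and 0.427 points, and Tcf7l2, a transcription factor gene of Wnt signalling, by 0.0107.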

How the data were processed

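Libraries were made from 100 ng of DNA per animal, cut with MspI. Per the labels, each deposited file held, for each CpG cytosine, the count of reads and the count of methylated reads that the authors obtained, and the submitters' processing notes name bcl2fastq, Trim Galore and Bismark. Positions were on MicOch1.0, and genes came from the RefSeq gene table of that assembly, which gives no strand or exons and was used for placed chromosomes only.

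Cytosines with at least 10 reads in an animal entered with that animal. The 2-group Wald test of DSS was re-implemented in Python 3.11.15 (numpy 2.4.6, scipy 1.17.1), with 0.5 methylated reads and 1 read added, and tested on simulated data. Regions and genes (at least 5 tested cytosines) were fitted with limma 3.58.1 in R 4.3.3, and mean levels were compared by exact permutation. The replicates are separate animals. Reads carry no molecular identifiers, so intervals and limits cover counting error only. The comparison, its members, the lists and the tests were chosen with earlier results of these data known. Named were the 6 called cytosines with the smallest adjusted p-value per direction in a named gene, at most 1 per gene, and the 3 regions and genes with the smallest p-value per direction where fewer were called. Alternatives changed the coverage, thresholds, test, strands, chromosome X, region and gene definitions, caring group weights and single animals. Promoters and sequences were not analysed here.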

Additional observations from a re-analysis of the deposited data

Results flagged for a closer look

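Among the groups of 4 to 6 animals, 21 (20.2%) had 1 animal whose gap to the nearest other was a large part of the group's whole range (Dixon's critical value at 95%). Chance alone flags about 1 in 20 groups, and groups in which the other animals are all at 0% or 100% are flagged by any single other value.

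In most cases the other animals sat at or near an end of the scale. “Father” animal 1 had 6.25% in Card9, and “Parental” animal 4 had 6.25% in Kdm2b and 6.12% in Tm6sf1. At both cytosines of Sipa1l2 “Parental” animal 3 had 3.64% and “Father” animal 2 had 2.22%. “Attacker” animal 3 had 92.1% in Hcrtr2 and 95% in Tinagl1 where the others had 100%, and 23.1% in Bcor where the others had 0%. “Attacker” animal 2 had 30.6% in Sema6b, and “Father” animal 1 had 18.8% in Asic2, again with the others at 0%.

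The other values were as follows. “Father” animal 1 had 100% in Slc38a10, where the next had 32%. “Parental” animal 4 had 43.5% in Sema6b, where the others had 100%. “Parental” animal 5 had 91.7% in Cacna1e, where the next had 38.9%, and “Attacker” animal 3 had 68% in Asic2, where the next had 47.2%. “Father” animal 2 had 0.0694% in the region JH996490.1:889185-889262. “Father” animal 3 had 0.510% in JH996446.1:4208451-4208757 and 11.8% in JH996529.1:864776-864970. “Attacker” animal 1 had 0.0135% in LOC113457511, and “Father” animal 2 had 4.17% in Col12a1, where the next had 11.9%.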

How the results depend on the processing

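The number of DMCs (called cytosines) depended on the settings, and is given per 1000000 tested cytosines because the number tested differed. Against 42.8 in the report, it was 7393.55 with an unadjusted p-value, 27.3 with at least 20 reads, 14.4 with 10 reads in all 17 males, and 8.75 with limma, with or without equal weights of the caring groups (88.9% hypermethylated with caring males pooled). “Attacker” vs “Parental” alone gave 98.7 and “Attacker” vs “Father” alone 120.3, both chosen after seeing the data. Leaving out 1 male gave 36.9 to 119.5, of which 42.4% to 68.4% were hypermethylated, and each fit without an “Attacker” male gave over 1.5 times as many DMCs. The mean level differed by 0.00981 to 0.312 points in these fits.

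The called regions numbered 0 on the untransformed level, 2 with no minimum difference and 0 to 1 with 1 male left out. With at least 10 cytosines the number was 0, but the called region holds 6 and was not tested there. With the replicate number as a replicate block, limma called 0 cytosines (17491 at an unadjusted p-value under 0.05) and 0 regions. The labels do not say that numbers mark shared animals or days, so the numbers were not taken as pairs. Of 16 same-numbered pairs 1 correlated over 0.1 (median 0.0299, -0.0224 to 0.132). Of 80 pairs with different numbers 3 did (median -0.00914, -0.133 to 0.121). These correlations do not settle whether the numbers mark pairs. The numbers did go with depth. The median depth at number 1 was 38 reads in “Attacker”, 26 in “Parental” and 43 in “Father”. At number 5 it was 20, 23 and 22 reads. The pair correlation thus does not show that the block can be left out. What the number stands for was not tested. Called genes stayed at 0 in all fits run.

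Of the genes measured by qPCR, which did not pass the test, 4 changed sign with 1 male left out: gene Crhr2 (-0.612 to 0.0858 points), gene Kiss1r (-0.676 to 0.142), gene Prlhr (-0.226 to 1.30) and gene Tcf7l2 (-0.850 to 0.779). With the replicate block gene Tcf7l2 had -0.328. The cause of these changes was not tested. Called promoters were not run, for want of a promoter table. A level from 10 reads is resolved only coarsely, which limits single animals' values.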
